A study of Arabidopsis thaliana with 24 samples.

Results

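The cysteine-rich receptor-like kinases (CRKs) are a plant family of membrane proteins with extracellular DUF26 domains that carry a conserved cysteine motif, a transmembrane helix, and a cytosolic serine/threonine kinase domain. Members of the family are known for their roles in responses to pathogens, salicylic acid, and reactive oxygen species, and several of them influence cell death in leaves. In Arabidopsis, many of the genes lie side by side on chromosome 4 as tandem copies.

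The members were 42 genes listed by their locus identifiers, out of 37813 genes in the table of read counts. A gene was tested when it was protein-coding and had at least 5 reads in at least 6 of the 24 libraries, which 20094 genes and 40 of the 42 members passed. *CRK1* had 0 reads in every library, and *CRK33* had 1 and 2 reads in only 2 libraries, hence both were not tested. Because the filter uses reads, members with low levels were tested with less precision than the others. Of the 42 members, 37 lie on chromosome 4, and 20 of these, from *CRK5* (AT4G23130) to *CRK24* (AT4G23320), form a run at chr4:12117491-12191704 (TAIR10 coordinates), which spans 74.2 kb. *CRK36* (AT4G04490) to *CRK40* (AT4G04570) form a second group at chr4:2231717-2292965, *CRK30* (AT4G11460) to *CRK34* (AT4G11530) a further one at chr4:6963521-6989793, and *CRK45* (AT4G11890) stands alone at chr4:7147865-7149942.

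RNA was sequenced from whole rosettes of wild-type *Arabidopsis thaliana* Col-0 gl1 and of *phot1*, *phot2*, and *phot1phot2*, all in the gl1 background, which lacks leaf hairs. PHOT1 and PHOT2 are the blue light receptor kinases phototropin 1 and 2. Each genotype was sampled without treatment and 30 min after UV-C at 100 mJ cm-2, with 3 replicates in each of the 8 groups. According to the labels, a replicate was a pool of at least 4 rosettes, and plants were 4 weeks old, whereas the methods of the study give 3 weeks. Since rosettes are mixtures of cells, fewer cells of one type and less RNA per cell cannot be told apart.

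Non-treated libraries held 33200727 to 41902444 reads and UV-C libraries 20897905 to 28723145 reads. Reads of chloroplast and mitochondrial genes made up 0.0198% to 0.0402% of non-treated and 2.01% to 2.78% of UV-C libraries, with no overlap. Other reads outside protein-coding nuclear genes made up 0.589% to 0.709% and 5.61% to 9.71%, respectively. All UV-C effects below were measured across this difference in library composition, so the treatment and the composition cannot be told apart. Composition also differed between genotypes after UV-C: reads of tested genes made up 90.7% to 92.4% of treated *phot1phot2* libraries and 89.0% to 89.6% of treated wild-type libraries, with TMM scaling factors of 0.869 to 0.887 and 0.974 to 1.02, while in non-treated libraries the share was 99.2% to 99.4%. Its part in the results of treated *phot1phot2* was not tested. The summed level of 3 leaf markers (*RBCS1A*, *LHCB1.2*, and *RCA*) was 26991 to 38300 CPM (normalised read counts scaled to a common library size), and that of 3 flower markers (*AP1*, *AG*, and *SEP3*) was 0.560 to 4.31 CPM. The leaf sum was highest in treated *phot1phot2*, at 36712 to 38300 CPM. The targeted genes matched their labels in direction. *PHOT1* was 302, 329, and 294 CPM in the non-treated wild type and 116, 126, and 122 CPM in *phot1*, and *PHOT2* was 425, 432, and 435 CPM and 268, 273, and 248 CPM in *phot2*. Thus, both mutants still gave reads of the targeted gene, at a lower level.

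Levels of the members differed widely between genes in the non-treated wild type. Per kb of exon, *CRK40* was the highest member at 29.6 CPM per kb, followed by *CRK21* at 25.2 and *CRK18* at 23.7 CPM per kb, whereas *CRK25* was the lowest tested member at 0.0174 CPM per kb. In the run on chromosome 4, *CRK20* lies next to *CRK21* and was at 0.140 CPM per kb. Hence, neighbouring genes of the run had levels that differed strongly. A few members share sequence with other loci: of the stretches of 76 bases in their exons, 85.2% in *CRK6*, 86.2% in *CRK22*, 87.2% in *CRK13*, and 87.9% in *CRK8* occur once in the genome, against at least 97.2% in every other member. The values of those 4 genes are thus less certain. Reads were counted without regard to strand, and 10 of the members overlap another annotated gene. *CRK10* and *CRK11* overlap by 32 bases at their ends on opposite strands. *CRK45* overlaps AT4G11900 on the opposite strand, while *CRK28* with *CRK29* and *CRK16* with *CRK17* overlap on the same strand. The effect of these overlaps on the values was not tested.

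The DNA upstream of 4 members is shown because they differ in the W-box core, the element that WRKY transcription factors are known to bind, and the results below turn on these genes. The runs are the 250 bases before the annotated start (5′ to 3′ on the strand of the gene, from the RefSeq genome TAIR10.1), with the letters TTGAC, or GTCAA for the other strand, in capitals. *CRK11* lies on the minus strand (window chr4:12143859-12144108), *CRK31* on the plus strand (chr4:6967459-6967708), *CRK24* on the minus strand (chr4:12191705-12191954), and *CRK12* on the minus strand (chr4:12148042-12148291).
CRK11: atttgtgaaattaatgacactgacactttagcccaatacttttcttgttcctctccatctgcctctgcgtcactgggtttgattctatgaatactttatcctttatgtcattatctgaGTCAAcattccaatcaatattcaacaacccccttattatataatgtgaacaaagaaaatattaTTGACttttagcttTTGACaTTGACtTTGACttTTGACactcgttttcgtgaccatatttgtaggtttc
CRK31: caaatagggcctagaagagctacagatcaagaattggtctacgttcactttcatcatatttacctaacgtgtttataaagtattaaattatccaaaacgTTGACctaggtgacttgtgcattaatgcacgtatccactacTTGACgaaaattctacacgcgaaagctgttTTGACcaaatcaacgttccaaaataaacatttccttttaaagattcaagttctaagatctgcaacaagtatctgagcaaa
CRK24: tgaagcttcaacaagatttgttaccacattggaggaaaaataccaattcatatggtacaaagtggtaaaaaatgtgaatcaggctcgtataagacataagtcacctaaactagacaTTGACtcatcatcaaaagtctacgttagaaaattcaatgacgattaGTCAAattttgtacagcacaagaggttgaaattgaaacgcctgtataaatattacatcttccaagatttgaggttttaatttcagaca
CRK12: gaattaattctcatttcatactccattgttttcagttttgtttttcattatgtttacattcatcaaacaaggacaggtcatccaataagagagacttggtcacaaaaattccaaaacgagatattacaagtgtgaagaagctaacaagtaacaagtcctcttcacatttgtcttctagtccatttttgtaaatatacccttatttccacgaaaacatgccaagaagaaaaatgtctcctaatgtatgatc

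The upstream run of *CRK11* held 6 matches, most of them in a short stretch close to the start, that of *CRK31* held 3, that of *CRK24* held 2, and that of *CRK12* held 0. Over the window of 300 bases that reaches 50 bases past the start, 31 of the 42 members (73.8%) had at least 1 match on either strand, compared with 50.8% of 20093 promoters of tested genes, and 17 members (40.5%) had 2 or more matches compared with 18.1%. Among the 6 members that rose after UV-C in at least 3 genotypes, 5 had a match, and among the 10 members that were higher in *phot2* after UV-C, 8 had a match, compared with 18 of the 26 remaining members. The letters TATAAA were found in 50.0% of the members and in 51.5% of all promoters, and CGCGTT in 2.38% and 3.81%. These matches are descriptions of the sequence, and *CRK12*, with no match in this window, had the largest rise after UV-C in the wild type.

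In order to describe the response to UV-C, treated rosettes were compared with non-treated rosettes of the same genotype. A gene was called at an adjusted p below 0.01 and an absolute log2FC above 1, with adjusted p-values from edgeR's quasi-likelihood test and the Benjamini-Hochberg method over all 20094 genes. In the wild type, 6 of 40 members rose and 2 fell, compared with 6.88% and 2.35% of all tested genes. In *phot1*, 6 members rose and 1 fell (6.37% and 2.09% of all genes), in *phot2* 7 rose and 1 fell (7.9% and 2.34%), and in *phot1phot2* 7 rose and 2 fell (7.2% and 3.55%). *CRK9*, *CRK11*, *CRK12*, *CRK14*, and *CRK31* rose in all 4 genotypes, *CRK30* fell in all 4, and 30 of 40 members were called in no genotype. The median log2FC of the members was 0.0808 in the wild type, close to that of all genes (-0.00133). All treated libraries were above all non-treated ones for 11 wild-type members and below for 9 (27.9% and 30% of all genes). The same counts were 10 and 10 in *phot1* (27% and 28.5%) and 16 and 8 in *phot2* (28.8% and 29.6%). In *phot1phot2* they were 12 and 11 (30% and 29.6%). Groups that are apart were thus common after UV-C, and are no separate test of a called gene. The summed level of 3 guard cell markers (*FAMA*, *MYB60*, and *KAT1*) was 50.3 to 70.9 CPM in non-treated and 31.4 to 36.8 CPM in UV-C libraries, with 1 of the 3 called lower in *phot1phot2* and 0 in the other genotypes. That of 2 xylem markers (*XCP1* and *IRX3*) was 6.86 to 11.3 CPM and 14.2 to 23.9 CPM, with 1 of the 2 called higher in each genotype. Of the leaf markers, *LHCB1.2* was called higher in each genotype (log2FC 2.11, 1.92, 1.95, and 2.11), while *RBCS1A* and *RCA* were not called. The phloem markers *SUC2* and *APL* were higher in each genotype (log2FC 0.2 to 0.63 and 0.56 to 0.74), and neither was called. The part of these genes and cell types in the UV-C results was not tested.

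**Figure D1:**
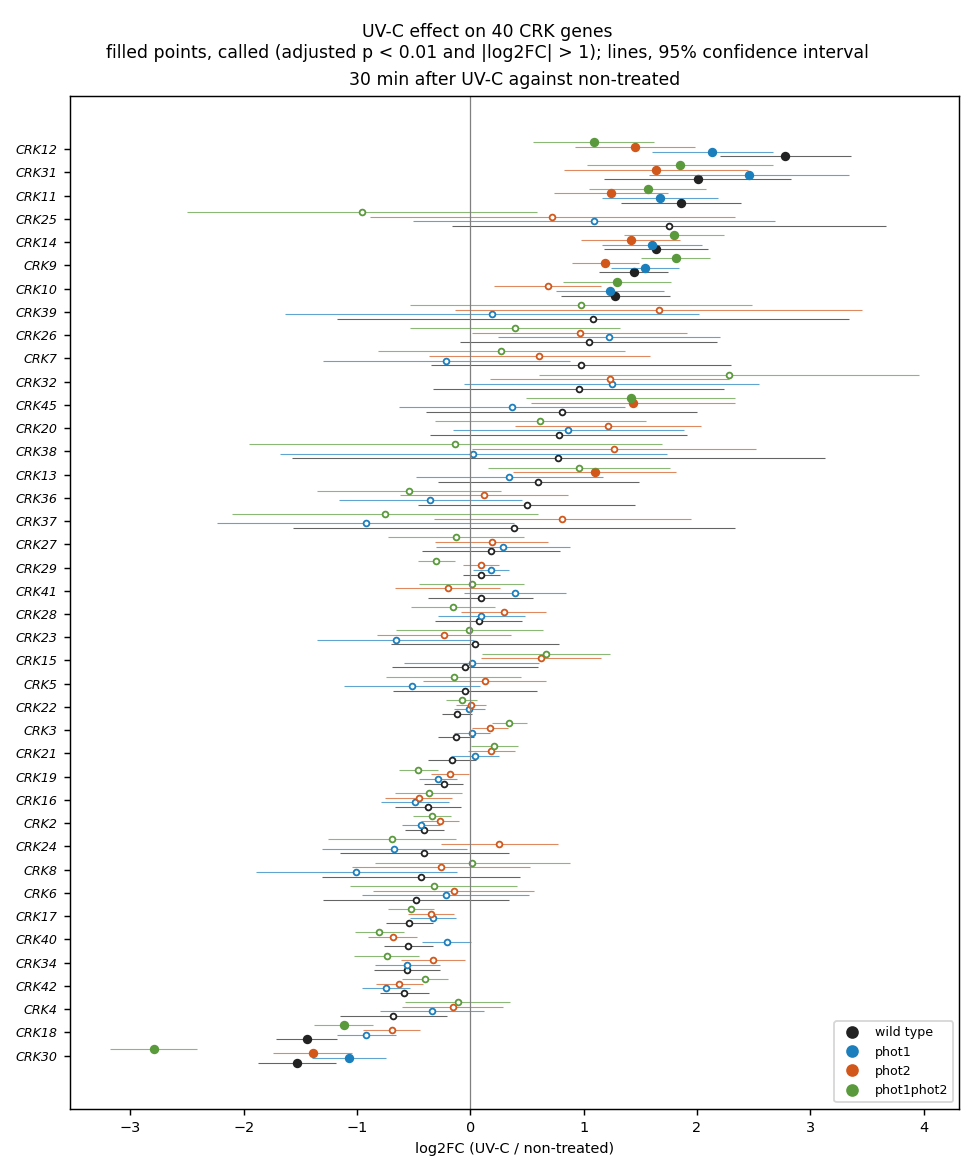
Difference between UV-C and non-treated rosettes (x axis, log2FC) for the 40 tested CRK genes (y axis) in the 4 genotypes (colours). Filled points were called, lines are 95% confidence intervals from the model of all 8 groups (3 libraries per group), and most genes lie near 0, with CRK12 at the top and CRK30 at the bottom.

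Of the genes that rose after UV-C, several lie close together. *CRK9* to *CRK14* are 6 neighbouring genes at chr4:12134973-12156881, and all of them except *CRK13* were among the 6 called in the wild type. *CRK12* (AT4G23200) had the largest rise, from 0.793, 1.69, and 1.08 CPM to 6.23, 9.66, and 8.6 CPM in the wild type (log2FC 2.78 ± 0.27 SE, n = 3 and 3, edgeR adjusted p = 2.64e-08). It was 2.35, 2.27, and 1.88 CPM before and 11.4, 6.52, and 10.8 CPM after UV-C in *phot1*. All treated libraries of both genotypes were above all non-treated ones. In *phot2*, *CRK12* was 1.96, 3.0, and 3.29 CPM and 9.53, 6.12, and 6.91 CPM, and in *phot1phot2* 2.78, 2.53, and 3.0 CPM and 4.69, 5.85, and 7.11 CPM. Here the groups did not overlap either (log2FC after UV-C 1.45 in *phot2* and 1.09 in *phot1phot2*). Non-treated libraries of all mutants, *phot1* included, were above those of the wild type.

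*CRK11* (AT4G23190), whose transcript is known to respond to salicylic acid and reactive oxygen species, went from 4.85, 6.78, and 9.08 CPM to 25.1, 21.4, and 28.2 CPM in the wild type (log2FC 1.86 ± 0.25, edgeR adjusted p = 2.64e-06). Its rises in the mutants were 1.67, 1.24, and 1.56 on the log2 scale in *phot1*, *phot2*, and *phot1phot2*. The upstream run with 6 W-box cores belongs to this gene, and the part of these matches in the rise was not tested. *CRK14* rose by 1.64 in the wild type and by 1.42 to 1.8 in the mutants, and *CRK9* by 1.44 and by 1.19 to 1.81. Both were thus raised in each genotype, with treated and non-treated libraries apart in all of them. *CRK10* (AT4G23180), the most abundant gene of the block per kb, was 26.1, 41, and 40.4 CPM and 82.1, 85.3, and 93.5 CPM in the wild type (log2FC 1.28 ± 0.23, edgeR adjusted p = 7.45e-05). In *phot2* it was 38.2, 43.2, and 71.3 CPM and 86.8, 72.1, and 86 CPM, and this difference was not called (log2FC 0.68, edgeR adjusted p = 0.0137). The third non-treated *phot2* library nearly reached the treated ones, and the difference between the *phot2* and wild-type effects did not pass the test (log2FC -0.6, 95% confidence interval -1.27 to 0.0722, edgeR adjusted p = 0.418).

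Outside this block, *CRK31* (AT4G11470), a member of the *CRK30* to *CRK34* group, was 0.272, 0.547, and 1.14 CPM before and 2.72, 1.91, and 3.14 CPM after UV-C in the wild type (log2FC 2.01 ± 0.39, edgeR adjusted p = 0.000201). The groups were apart in each genotype, with log2FC 2.46, 1.64, and 1.85 in the mutants in the order *phot1*, *phot2*, and *phot1phot2*. The neighbouring *CRK30*, which ends 508 bases before *CRK31* starts, went the other way. *CRK30* was 7.93, 11.2, and 7.59 CPM in non-treated and 2.67, 3.13, and 3.47 CPM in treated wild type (log2FC -1.53 ± 0.16, edgeR adjusted p = 8.17e-08). *CRK18* (AT4G23260), one of the most abundant members per kb, was 54.2, 51, and 52 CPM and 19.5, 23.7, and 14.2 CPM (log2FC -1.44 ± 0.13, edgeR adjusted p = 4.40e-09). Treated and non-treated libraries of both genes were apart in all 4 genotypes. A few UV-C calls in the mutants were lost without a single library: that of *CRK30* in *phot1* without the first treated replicate (log2FC -0.999), that of *CRK31* in *phot2* without the second treated replicate (edgeR adjusted p = 0.011), and that of *CRK12* in *phot1phot2* without the third treated replicate (log2FC 0.92).

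**Figure D2:**
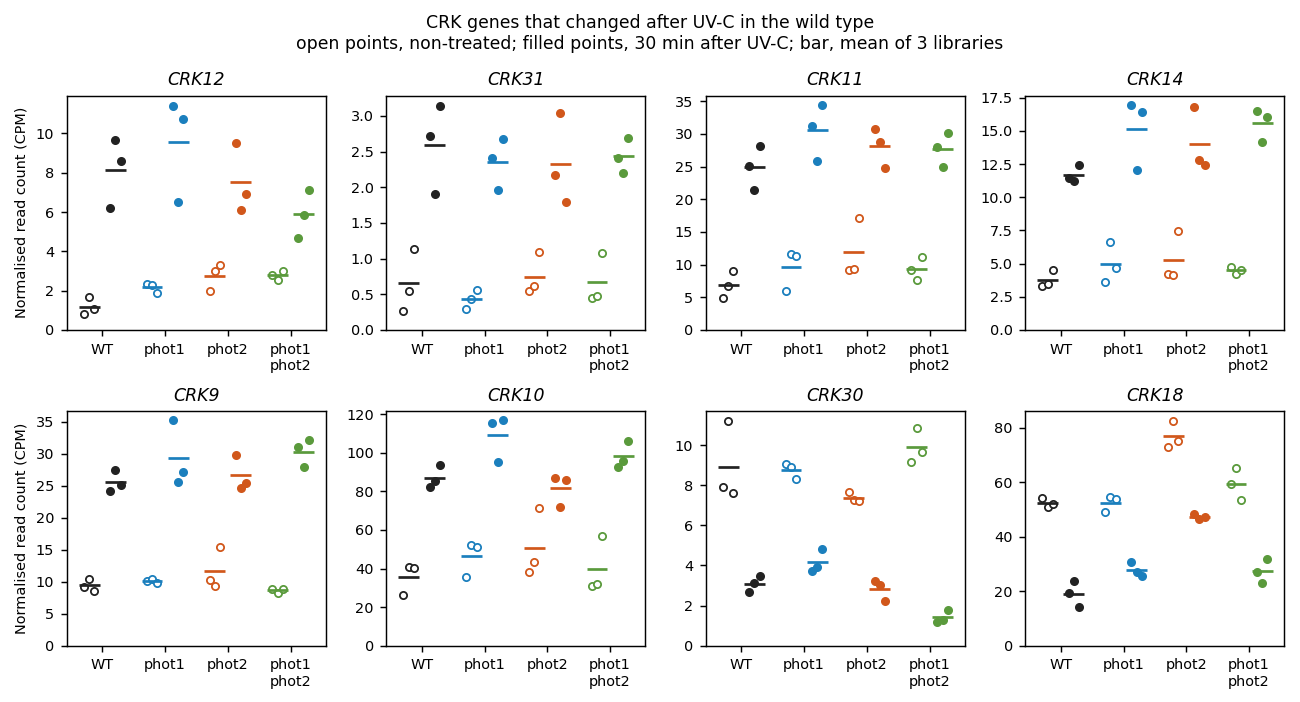
Normalised read counts (y axis, CPM, each panel with its own scale from 0) of the 8 members called after UV-C in the wild type, in every library by genotype (x axis). Treated libraries (filled) lie above non-treated libraries (open) in the first 6 panels and below them for CRK30 and CRK18, and bars are means of 3 libraries.

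*CRK18* also fell by 1.12 on the log2 scale in *phot1phot2*, from 59.5, 65.4, and 53.4 CPM to 27.2, 22.9, and 31.8 CPM. In *phot1*, it was 49.1, 54.6, and 54.1 CPM and 30.7, 27.2, and 25.5 CPM, and in *phot2* 72.9, 82.7, and 75.1 CPM and 48.4, 46.6, and 47.4 CPM. These 2 differences stayed inside the log2FC limit of 1, although their adjusted p was below the threshold (-0.92, edgeR adjusted p = 2.43e-06, and -0.7, edgeR adjusted p = 4.32e-05). The difference between the *phot2* and wild-type effects was 0.75 (edgeR adjusted p = 0.0176), hence it did not pass the threshold.

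*CRK13* and *CRK45* were called in only some genotypes. *CRK13* (AT4G23210), whose overexpression is known to raise salicylic acid and resistance to bacteria, was 2.43, 2.98, and 6.45 CPM in non-treated and 7.15, 11.1, and 7.0 CPM in treated *phot2* (log2FC 1.1 ± 0.34, edgeR adjusted p = 0.00978). In the wild type it was 1.2, 1.14, and 1.92 CPM and 3.14, 1.45, and 1.82 CPM, where the groups overlapped (log2FC 0.6, edgeR adjusted p = 0.245). The rise of *CRK13* in *phot2* was not called when any of 5 of the 6 libraries was left out, the exception being the third non-treated replicate. *CRK45*, also named ARCK1 and known to act with *CRK36* in responses to abscisic acid, was 3.06, 2.65, and 6.5 CPM and 11.4, 12.8, and 8.71 CPM in *phot2* (log2FC 1.43 ± 0.42, edgeR adjusted p = 0.00729). In *phot1phot2*, it was 5.48, 2.53, and 2.16 CPM and 10.15, 7.95, and 8.97 CPM (log2FC 1.41 ± 0.43, edgeR adjusted p = 0.00885). In the wild type and *phot1*, the log2FC of *CRK45* was 0.8 and 0.37, and neither interaction test passed for *phot2* (edgeR adjusted p = 0.773) or *phot1phot2* (edgeR adjusted p = 0.65). DESeq2 did not call either rise of *CRK45*, and edgeR did not call it without any of 4 of the 6 libraries in *phot2* (non-treated replicates 1 and 2, treated replicates 1 and 2, adjusted p up to 0.0422) or 5 of the 6 in *phot1phot2* (all except non-treated replicate 1, adjusted p up to 0.0465). With the replicate number as a block, the rise of *CRK45* in *phot2* was not called either (edgeR adjusted p = 0.0105). Without the second treated *phot2* library, only 5 members were called in *phot2*, and without the third non-treated one 13 were called.

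The genes that the family is known to act with were also compared. WRKY factors, which bind the W-box, had 6, 7, 6, and 7 of 10 genes higher after UV-C in the wild type, *phot1*, *phot2*, and *phot1phot2*, with log2FC 4.83 for *WRKY40*, 4.4 for *WRKY70*, and 4.28 for *WRKY18* in the wild type. Of 9 genes of the MAP kinase cascade, 4, 5, 4, and 4 rose in the same order of genotypes, including *MPK11* (4.18), *MKK9* (3.01), and *MPK3* (2.75 in the wild type). A larger share of these genes than of the CRK genes was called, while 6.88% of all tested genes rose in the wild type. The lists and the members were chosen with earlier results of these data known, so this difference in share describes these lists only. Of 13 receptor partners and genes of the oxidative burst, 3 rose in each genotype: *CPK28* (2.64 in the wild type), *RBOHD*, the oxidase that makes superoxide at the plasma membrane (1.71), and *SOBIR1* (1.22), whereas *PBL1* fell in the wild type (-1.22). Of 12 genes of salicylic acid signalling, 3, 2, 1, and 2 rose, among them *SARD1* (4.77), a transcription factor that drives salicylic acid synthesis. Of 8 plasmodesmata-located proteins, which share the DUF26 domain but have no kinase, none was called by edgeR in the wild type, *phot1*, or *phot2*, and *PDLP3* fell in *phot1phot2* (-1.27). The median log2FC of these 5 lists in the wild type was 2.44, 0.9, 0.13, 0.65, and 0.1 in the order given, compared with 0.0808 over the CRK genes.

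The next question was whether the members differed between mutants and the wild type without treatment. In *phot1*, 0 of 40 members were called by edgeR's quasi-likelihood test (14 had an unadjusted p below 0.05, and all 14 were higher), while 0.0796% of all genes were called higher and 0.0448% lower. Over the 20094 tested genes, 2384 had an unadjusted p below 0.05 in this comparison. With the likelihood ratio test with robust dispersions and with DESeq2, 2 members (*CRK36* and *CRK37*) were called in *phot1*. The share of all genes that these tools called is not given, so this count has no background to be set against. In *phot2*, 3 members were higher and 0 lower (0.746% and 0.0846% of all genes), and in *phot1phot2* 3 were higher and 0 lower (0.508% and 0.229%). The 3 comparisons share the wild-type libraries. The median log2FC over the members was 0.31, 0.51, and 0.36 for the 3 mutants in this order, while the medians of all genes were -0.00344, -0.00543, and -0.012. The summed level of 2 phloem markers (*SUC2* and *APL*) was 125 to 142 CPM in the non-treated wild type and lower in all mutant libraries, at 112 to 114 CPM in *phot1*, 107 to 110.1 CPM in *phot2*, and 93.8 to 111 CPM in *phot1phot2*, with 0 of the 2 called by edgeR (*SUC2* had an adjusted p of 0.00334 and log2FC -0.4 in *phot1phot2*). That of the 3 guard cell markers was 52.4 to 59.2 CPM in the wild type and 59.9 to 70.9 CPM in *phot1phot2*. None of these was called (log2FC 0.25 for *FAMA*, 0.28 for *MYB60*, and 0.02 for *KAT1*, whose groups overlapped). The part of the phloem and guard cell markers in the result was not tested.

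*CRK36* was 1.47, 1.39, and 1.65 CPM in the wild type and 5.35, 5.59, and 9.41 CPM in *phot2* (log2FC 2.17 ± 0.38, n = 3 and 3, edgeR adjusted p = 0.00154). In *phot1* it was 3.41, 7.14, and 3.61 CPM (log2FC 1.65 ± 0.39, edgeR adjusted p = 0.0334), and in *phot1phot2* 8.18, 1.89, and 4.23 CPM (log2FC 1.66 ± 0.39, edgeR adjusted p = 0.00641). All mutant libraries were above all wild-type libraries, but the replicates of *phot1phot2* spread widely, and the second was close to the wild type. *CRK24* (AT4G23320), the last gene of the run on chromosome 4, was 0.589, 0.547, and 0.298 CPM in the wild type, 1.15, 1.22, and 1.84 CPM in *phot2*, and 1.34, 1.2, and 1.65 CPM in *phot1phot2* (log2FC 1.52 ± 0.26, edgeR adjusted p = 0.00111, and 1.52 ± 0.26, edgeR adjusted p = 0.000488). Its neighbour *CRK23* (AT4G23310) was 1.47, 0.795, and 0.895 CPM in the wild type and 2.56, 2.84, and 4.94 CPM in *phot2* (log2FC 1.69 ± 0.29, edgeR adjusted p = 0.00117). Both genes had no overlap between the groups compared. *CRK12*, given above, was 1.23 ± 0.28 higher on the log2 scale in *phot1phot2* (edgeR adjusted p = 0.00535).

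These calls rested partly on single libraries. The third non-treated *phot2* library had the highest level of 31 of 40 members in its group, whereas it was the highest for 35.4% of all tested genes, and without it 0 members were called in *phot2* (edgeR adjusted p = 0.0143 for *CRK36*, 0.013 for *CRK23*, and 0.0124 for *CRK24*). Without the first *phot2* replicate 6 were called. In *phot2*, *CRK36* was also not called without the first or second wild-type library and *CRK23* without the second, with edgeR adjusted p up to 0.0113. Likewise, the second non-treated *phot1* library was the highest of its group for 30 of 40 members, against 29.2% of all genes. The summed level of 12 genes of salicylic acid signalling was also highest in these libraries, at 299.8 CPM against 213 and 211 CPM in *phot2* and at 258 CPM against 214 and 216 CPM in *phot1*. Other lists were also highest in the third *phot2* library. These were the WRKY factors (188.5 against 139.6 and 132.6 CPM), the MAP kinase cascade (310.2 against 255.2 and 264.9 CPM), and the receptor partners (505.5 against 428.7 and 436 CPM). In the second *phot1* library, the MAP kinase cascade was not highest (252.3 against 255.3 and 240.8 CPM). The part of these genes in the result was not tested. In *phot1phot2*, 1 member was called without the third wild-type or without the first *phot1phot2* library. There, *CRK24* kept its call without any library, *CRK36* was called only when *phot1phot2* replicate 2 or 3 was the one left out (adjusted p otherwise up to 0.0654), and *CRK12* only without the second wild-type library (edgeR adjusted p otherwise up to 0.0348).

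After UV-C, most of the calls against the wild type were made in *phot2*. There, 10 of 40 members (25%) were higher and 0 lower, compared with 1.8% and 0.264% of all genes. In *phot1*, 0 members were called by edgeR's quasi-likelihood test, with 9 at an unadjusted p below 0.05, while 0.0348% of all genes were called higher and 0.0597% lower, and DESeq2 and the likelihood ratio test also called 0. Over the 20094 tested genes, 3260 had an unadjusted p below 0.05 in this comparison. In *phot1phot2*, 3 were higher and 1 lower (1.66% and 1.55% of all genes). In 25 of 40 members all 3 *phot2* libraries were above all 3 wild-type libraries, as in 15.2% of all genes, and no member was lower in that sense (14.3% of all genes). In *phot1*, 13 members were higher and 1 lower in that sense (10.9% and 8.32% of all genes). In *phot1phot2*, 14 were higher and 3 lower (23.9% and 23.7%). The medians over the members were 0.35, 0.54, and 0.37 on the log2 scale in *phot1*, *phot2*, and *phot1phot2*. The 3 comparisons share the treated wild-type libraries.

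**Figure D3:**
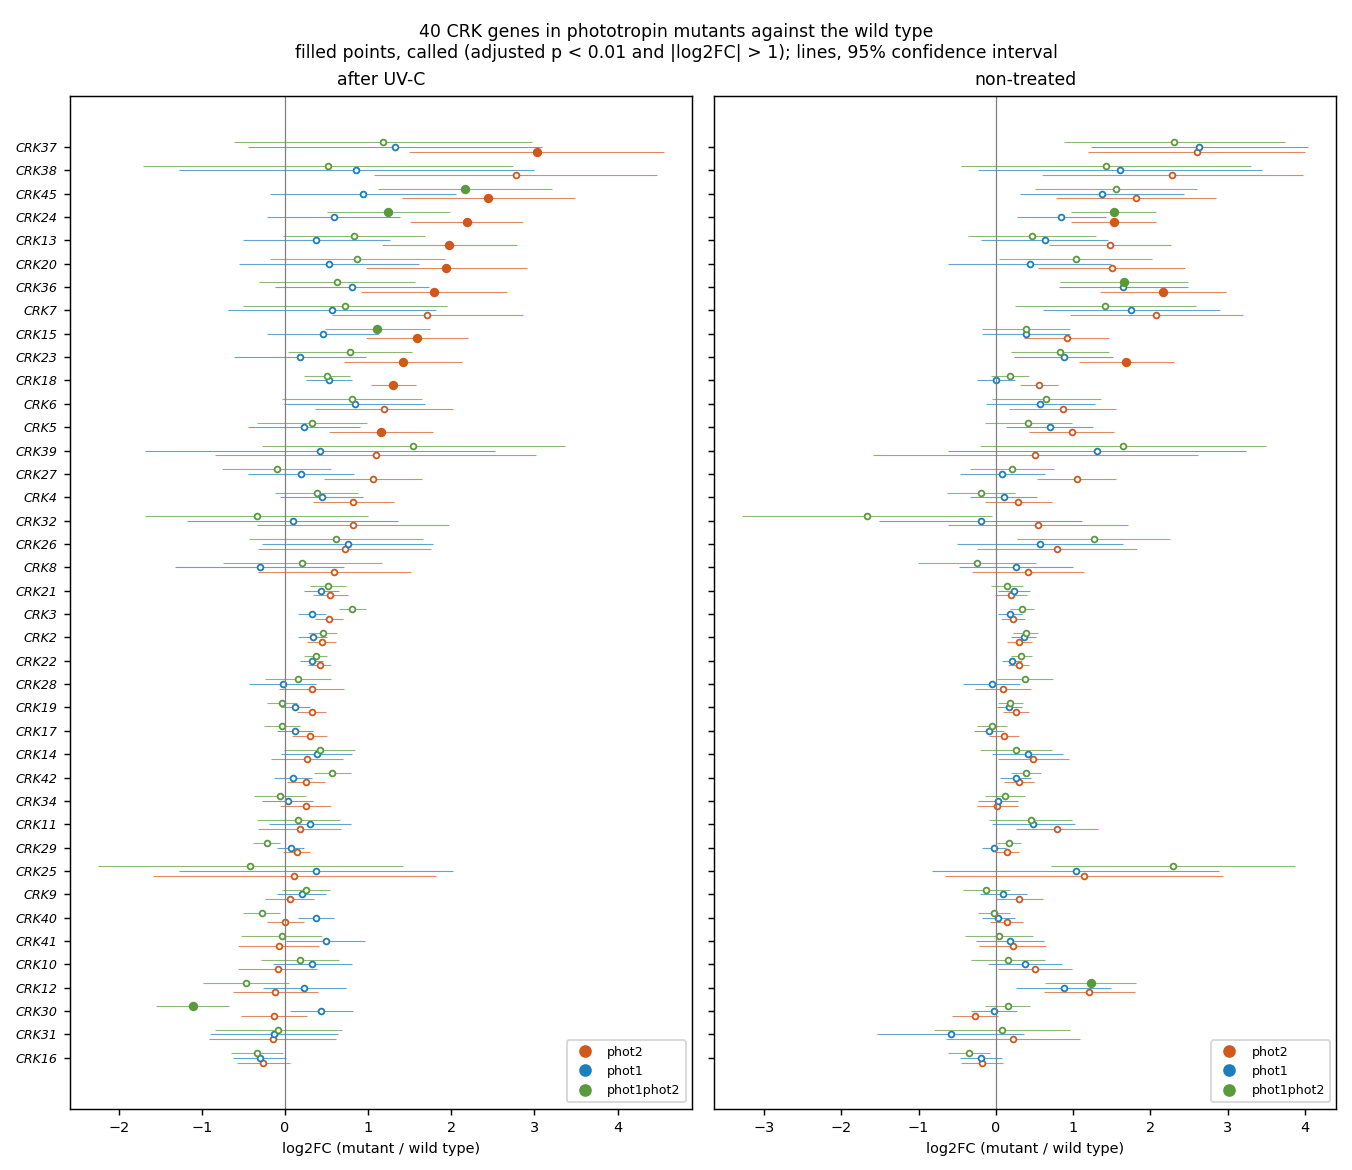
Difference between each mutant and the wild type (x axis, log2FC) for the 40 tested CRK genes (y axis), after UV-C (left) and without treatment (right), with mutants in colours. Filled points were called and lines are 95% confidence intervals from the model of all 8 groups (3 libraries per group), and phot2 after UV-C has 10 filled points, all to the right of 0.

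The gene with the largest difference in *phot2* after UV-C was *CRK37* (AT4G04500), at 0.0468, 0.653, and 0.331 CPM in the wild type and 2.96, 3.09, and 2.48 CPM in *phot2* (log2FC 3.03 ± 0.72, edgeR adjusted p = 0.00586). It was 0.946, 1.15, and 0.517 CPM in *phot1* and 0.628, 0.80, and 0.91 CPM in *phot1phot2*, where the difference was not called. The wild-type values were low and spread widely. *CRK45* was 1.83, 1.96, and 2.26 CPM in the treated wild type and 4.21, 5.06, and 2.3 CPM in *phot1*, compared with the *phot2* and *phot1phot2* values given above (log2FC 2.45 ± 0.49, edgeR adjusted p = 0.00143, and 2.17 ± 0.49, edgeR adjusted p = 0.00165). *CRK36* was 2.62, 2.15, and 1.54 CPM in the wild type, 3.12, 4.61, and 3.38 CPM in *phot1*, 8.89, 7.61, and 5.68 CPM in *phot2*, and 2.9, 2.8, and 4.08 CPM in *phot1phot2* (log2FC 1.79 ± 0.41 in *phot2*, edgeR adjusted p = 0.00447). Hence, the *CRK36* level in the treated mutants was above all wild-type libraries in each of them, but was called only in *phot2*.

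Within the run on chromosome 4, *CRK24* was 0.328, 0.233, and 0.551 CPM in the treated wild type and 1.75, 1.54, and 1.71 CPM in *phot2* (log2FC 2.19 ± 0.32, edgeR adjusted p = 6.84e-05). It was 0.567, 0.652, and 0.423 CPM in *phot1* and 0.966, 0.80, and 0.824 CPM in *phot1phot2* (log2FC 1.24 ± 0.35, edgeR adjusted p = 0.00808). *CRK24* was the member with a call in both mutants before and after UV-C. *CRK23* was 0.936, 1.54, and 0.772 CPM in the wild type and 2.17, 3.33, and 3.24 CPM in *phot2* (log2FC 1.42 ± 0.34, edgeR adjusted p = 0.00557). *CRK13* was 1.97 ± 0.38 higher on the log2 scale in *phot2* than in the wild type (edgeR adjusted p = 0.00111). *CRK15* (AT4G23230) was 0.843, 1.45, and 1.05 CPM in the wild type, 3.39, 2.84, and 3.8 CPM in *phot2*, and 2.66, 1.85, and 2.69 CPM in *phot1phot2* (log2FC 1.58 ± 0.29, edgeR adjusted p = 0.000655, and 1.11 ± 0.3, edgeR adjusted p = 0.00596). In treated *phot1*, *CRK15* was 1.7, 1.6, and 1.27 CPM, which overlapped the wild type and was not called. Treated *phot2* and wild-type libraries did not overlap for any of these 4 genes.

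*CRK18*, which fell after UV-C in the wild type, was 1.3 ± 0.13 higher on the log2 scale in treated *phot2* (edgeR adjusted p = 4.96e-07), where it was above every other treated library of the series. *CRK20* (AT4G23280), which is known to cause cell death when overexpressed, was 0.515, 0.373, and 0.661 CPM in the treated wild type and 2.06, 2.69, and 1.2 CPM in *phot2* (log2FC 1.94 ± 0.46, edgeR adjusted p = 0.00535). *CRK5*, another gene known to cause cell death when overexpressed, was 1.26, 2.1, and 1.32 CPM in the treated wild type and 3.28, 3.88, and 3.33 CPM in *phot2* (log2FC 1.15 ± 0.29, edgeR adjusted p = 0.00943). Both genes were at low levels, and their treated groups did not overlap. Without treatment, *CRK5* was 2.13, 1.57, and 1.14 CPM in the wild type and 2.59, 3.12, and 3.93 CPM in *phot2*, which was not called (log2FC 0.98, edgeR adjusted p = 0.028). The number of members called in treated *phot2* fell from 10 to 5 without the first or the third wild-type library or without the second *phot2* library, and to 6 without the first *phot2* library. *CRK15*, *CRK18*, *CRK24*, and *CRK45* kept their calls in *phot2* without any 1 of the 6 libraries, *CRK13* lost its call only without the second wild-type library (edgeR adjusted p = 0.01001), and *CRK5*, *CRK20*, *CRK23*, *CRK36*, and *CRK37* each lost it without 4 or 5 of the 6 in turn (edgeR adjusted p up to 0.0525). In *phot1phot2*, 1 member was called without the first wild-type or the first *phot1phot2* library, and 2 without the third *phot1phot2* library. *CRK24* in *phot1phot2* lost its call with DESeq2, with the replicate block (edgeR adjusted p = 0.0112), and without any of 5 of the 6 libraries, the exception being the third wild-type replicate. *CRK15* lost it without 4 of the 6 (edgeR adjusted p up to 0.0402), *CRK45* without the first wild-type library (edgeR adjusted p = 0.0108), and *CRK30*, which was lower, without the first *phot1phot2* library (log2FC -0.99).

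**Figure D4:**
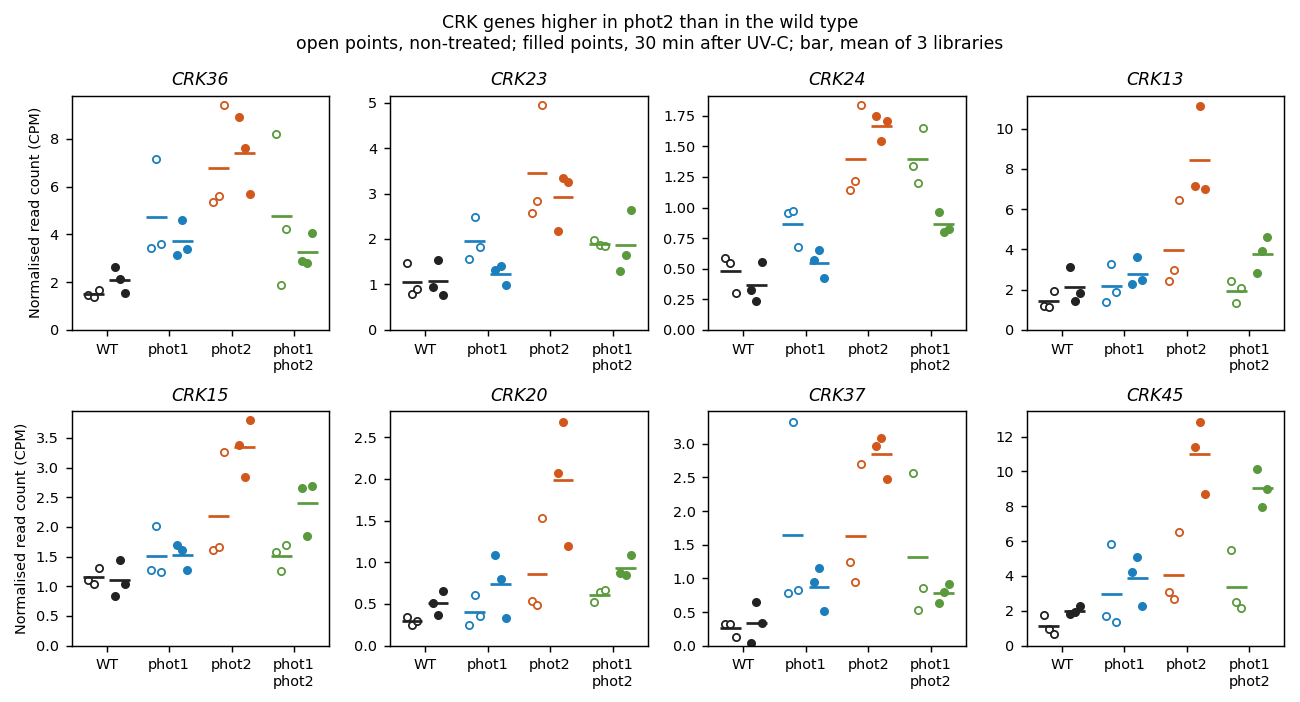
Normalised read counts (y axis, CPM, each panel with its own scale from 0) of 8 CRK genes called higher in phot2 than in the wild type, in every library by genotype (x axis), with open points for non-treated and filled points for UV-C libraries and bars for means of 3 libraries. In treated phot2 all 3 libraries lie above all 3 treated wild-type libraries in every panel.

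Some members of known function were not called in any mutant by edgeR's quasi-likelihood test. *CRK2* (AT1G70520), which is known to act on the oxidase RBOHD, was 21.7, 23.3, and 22.5 CPM in the treated wild type, 29, 31, and 25 CPM in *phot1*, 30.02, 31.5, and 29.96 CPM in *phot2*, and 31.6, 32.2, and 28.6 CPM in *phot1phot2*. All mutant libraries were above the wild type, and the log2FC was small, at 0.44 in *phot2* (edgeR adjusted p = 0.000923) and 0.45 in *phot1phot2* (edgeR adjusted p = 0.000241). Without treatment *CRK2* was 31.9, 31.3, and 26.1 CPM in the wild type and 36.5, 35.9, and 38.1 CPM in *phot2*. *CRK7* (AT4G23150), which is known for a role in responses to extracellular oxidative stress, was 0.796, 1.49, and 0.331 CPM in the treated wild type and 3.71, 2.34, and 2.77 CPM in *phot2* (log2FC 1.71 ± 0.54, edgeR adjusted p = 0.0333), and did not pass the threshold although the groups did not overlap. DESeq2 called *CRK7* in treated *phot2* (log2FC 1.74, adjusted p = 0.00796) as well as in *phot2* without treatment (log2FC 2.11, adjusted p = 0.00171), and the likelihood ratio test called it in treated *phot2*, in non-treated *phot1phot2*, and after UV-C in *phot2*. Without treatment, it was 0.566, 0.348, and 0.434 CPM and 1.12, 0.868, and 3.82 CPM.

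*CRK28* (AT4G21400), which is known to act in pathogen-triggered immunity together with the coreceptor BAK1, was 8.01, 11.6, and 9.54 CPM in the treated wild type and 13.9, 10.9, and 11.7 CPM in *phot2* (log2FC 0.32, edgeR adjusted p = 0.266). In non-treated wild type and *phot2* it was 9.58, 8.8, and 9.38 and 9.18, 9.74, and 10.8 CPM, and the *CRK28* groups overlapped in both conditions. *CRK4* (AT3G45860), another gene known to cause cell death when overexpressed, lies 38877 bases from *PHOT1* on chromosome 3. It was 21.9, 16.9, and 12.8 CPM in the non-treated wild type, 14.5, 24.2, and 16.6 CPM in *phot1*, and 15.3, 11.8, and 18.3 CPM in *phot1phot2*. The groups overlapped, and *CRK4* was not called in any mutant. After UV-C, *CRK4* was 9.32, 13.6, and 9.26 CPM in the wild type, 15.8, 16.3, and 11.6 CPM in *phot1*, 19.6, 17.2, and 20.02 CPM in *phot2*, and 12.5, 11.3, and 17.9 CPM in *phot1phot2* (log2FC 0.82 ± 0.23 in *phot2*, edgeR adjusted p = 0.0173).

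In treated *phot2*, 1 of 12 genes of salicylic acid signalling was higher than in the wild type (*PR2*, a glucanase that marks defence responses, with log2FC 1.84), as was 1 of 10 WRKY factors (*WRKY60*, 1.13), while none of the 9 genes of the MAP kinase cascade and none of the 13 receptor partners was called there by edgeR. Without treatment, *WRKY70* was called higher in *phot1* (1.07) and *phot2* (1.05), and *WRKY18* in *phot2* (1.13). The 3 flower markers summed to 2.84 to 4.06 CPM in treated *phot2* and to 1.92 to 2.31 CPM in the treated wild type. Their log2FC was 1.52 for *AP1*, 0.99 for *AG*, and 0.09 for *SEP3*. The 3 guard cell markers summed to 35.4 to 36.8 CPM and 31.4 to 32.4 CPM. Of these, only *KAT1* had no overlap between the groups (log2FC 0.52, edgeR adjusted p = 0.00182), whereas *FAMA* (-0.08) and *MYB60* (0.13) overlapped. None of these markers was called, and their part in the result was not tested.

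The UV-C response of each mutant was also set against that of the wild type in an interaction test. No member was called for *phot1* or *phot2* by edgeR's quasi-likelihood test (2 and 4 members had an unadjusted p below 0.05, DESeq2 called 0 in both, and the likelihood ratio test called 0 and 1), and 2 members were called for *phot1phot2*, both lower (0.816% of all genes were called lower and 0.702% higher). Among all genes, 0.00498% were called higher and 0% lower for *phot1*, and 0.199% and 0.169% for *phot2*. An unadjusted p below 0.05 was found for 1481 and 2840 of the 20094 genes, so the members had no larger share. *CRK30* was 9.15, 10.9, and 9.66 CPM in non-treated and 1.16, 1.3, and 1.78 CPM in treated *phot1phot2* (log2FC -2.79 ± 0.18). All treated *phot1phot2* libraries were below every other library of the series. The fall of *CRK30* was 1.26 ± 0.25 larger on the log2 scale than in the wild type (interaction log2FC -1.26, edgeR adjusted p = 0.00198). In *phot1* and *phot2*, *CRK30* was 3.74, 3.91, and 4.84 CPM and 3.23, 3.04, and 2.22 CPM after UV-C, from 9.07, 8.91, and 8.29 CPM and 7.65, 7.25, and 7.21 CPM.

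For *CRK12*, the rise in *phot1phot2* was smaller than in the wild type (interaction log2FC -1.69 ± 0.37, edgeR adjusted p = 0.00474). The treated levels of *CRK12* did not differ beyond the threshold (log2FC -0.47 ± 0.24, edgeR adjusted p = 0.14), whereas the non-treated level was higher in *phot1phot2*, as given above. The *CRK12* interaction was -1.33 in *phot2* (edgeR adjusted p = 0.0548), and the likelihood ratio test called it. The call of *CRK12* in *phot1phot2* was lost without any of 8 of the 12 libraries in turn (wild type non-treated replicates 1 and 3 and treated replicates 2 and 3, *phot1phot2* non-treated replicates 1 and 3 and treated replicates 1 and 2), with edgeR adjusted p up to 0.0186. The call of *CRK30* was lost when only the 4 groups concerned were fitted and without the first treated *phot1phot2* replicate (edgeR adjusted p = 0.0109).

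Finally, the mutants were compared with each other. Without treatment, 0 members were called by edgeR's quasi-likelihood test in the 3 comparisons, in which 8, 4, and 9 had an unadjusted p below 0.05, and DESeq2 and the likelihood ratio test also called 0. Of all genes, 0.0946% were called higher and 0.0647% lower in *phot2* than in *phot1*, 0.0398% and 0.0348% in *phot1phot2* than in *phot1*, and 0.0995% and 0.139% in *phot1phot2* than in *phot2*. An unadjusted p below 0.05 was found for 2576, 3614, and 3556 of the 20094 genes in the same order. After UV-C, *CRK13* and *CRK24* were higher in *phot2* than in *phot1* (0.737% of all genes were called higher and 0.0647% lower), with log2FC 1.6 ± 0.37 (edgeR adjusted p = 0.00811) and 1.6 ± 0.3 (edgeR adjusted p = 0.00161). *CRK13* was 2.27, 3.61, and 2.49 CPM in treated *phot1* and was thus below all treated *phot2* libraries. *CRK30* was lower in *phot1phot2* than in *phot1* (log2FC -1.55 ± 0.2, edgeR adjusted p = 1.38e-05, while 0.323% of all genes were called lower and 0.756% higher). *CRK27* (AT4G21230) was 0.953, 1.29, and 1.32 CPM in treated *phot2* and 0.483, 0.70, and 0.434 CPM in treated *phot1phot2* (log2FC -1.15 ± 0.28, edgeR adjusted p = 0.00482), and 1.05% of all genes were called lower and 0.274% higher there. Without the third treated *phot1* library 0 members were called between *phot2* and *phot1*, and 1 was called without the first treated *phot1* library or without any of the treated *phot2* libraries. *CRK13* lost its call without any of the 6 libraries in turn (edgeR adjusted p up to 0.044), while *CRK24* lost it only without the third treated *phot1* library (edgeR adjusted p = 0.012). *CRK27* was not called by DESeq2, nor without treated *phot2* replicate 2 or 3 or treated *phot1phot2* replicate 1 or 3 (edgeR adjusted p up to 0.0308), and 0 members were called there without the second treated *phot2* or the first treated *phot1phot2* library.

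Of the other 22 tested members, none was called in any comparison by edgeR's quasi-likelihood test with all libraries. DESeq2 called *CRK7*, as given above, and *CRK6* in treated *phot2* against the wild type (log2FC 1.2, adjusted p = 0.00811), and the likelihood ratio test called *CRK6*, *CRK7*, *CRK8*, *CRK25*, *CRK26*, and *CRK38* in at least 1 comparison each. The share of all genes that these tools called is not given here either. In these 22 members, the values below are from edgeR. In the wild type, the log2FC of the 22 members after UV-C ranged from -0.68 for *CRK4* to 1.75 for *CRK25*, which had a mean of 3.75 reads per library. *CRK40* and *CRK21*, the most abundant members per kb, were 83.8, 95, and 95.6 CPM and 50.7, 61.2, and 67.9 CPM in the non-treated wild type and 59.9, 71.9, and 55.8 CPM and 52.2, 55.3, and 52.8 CPM after UV-C. Neither passed the log2FC limit in any genotype.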

How the data were processed

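The deposited file holds raw read counts per gene for 24 libraries, made by the authors with STAR 2.5.2b and featureCounts of Subread 1.6.2 on the TAIR10 genome, from stranded libraries counted without regard to strand. Replicates were biological according to the labels. The members and gene lists were chosen with earlier results of these data known. Gene types, chromosomes, and sequences came from RefSeq (TAIR10.1), where all 42 member names matched with equal coordinates. Counts were scaled by TMM and fitted with edgeR 4.0.16 (quasi-likelihood test, R 4.3.3) over 20094 protein-coding genes that reached 5 reads in 6 or more libraries, with all 8 groups in 1 model. Each SE and confidence interval comes from that fit, which shares its estimate of spread across groups and genes. They do not measure the spread of the libraries of 1 group alone. Genes were called at an adjusted p below 0.01 (Benjamini-Hochberg) and an absolute log2FC above 1 in each of 19 contrasts. The study itself used a likelihood ratio test, which was run as an alternative beside DESeq2 1.42.0, other scalings, filters, and call rules, and leaving out each library. CPM are TMM-scaled, and their precision at low levels is limited by few reads. The scripts were tested on simulated counts. Replicates differed beyond counting noise in all 24 pairs (chi-square per degree of freedom 4.14 to 18.4). Samples of the same replicate number deviated together (every r above 0.1) in 2 of 16 comparisons, *phot1phot2* with the wild type (0.377, 0.237, and 0.447) and *phot1phot2* with *phot2* (0.164, 0.173, and 0.286), both non-treated. No label states that these samples were paired. The other number in the labels, from the descriptions, also matched between non-treated *phot1phot2* and wild type, but not fully between *phot1phot2* and *phot2*. The replicate block left their counts of members called at 3 and 0.

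Named genes were chosen by rule: members called between genotypes or in an interaction, the 3 largest rises and falls after UV-C in the wild type, members called after UV-C in only some genotypes, and 9 members of known function or position (*CRK36*, *CRK15*, *CRK24*, *CRK4*, *CRK5*, *CRK2*, *CRK7*, *CRK28*, and *CRK45*). Of those 9, *CRK36*, *CRK15*, and *CRK24* were also reported by the study as changed in the mutants, so their choice was not independent of these data. The study reported *CRK36* as changed in all non-treated mutants, and *CRK15* and *CRK24* as strongly raised in all treated mutants. It measured selected genes again by qPCR in 3 further replicates. Here, edgeR's quasi-likelihood test called *CRK36*, *CRK15*, and *CRK24* in neither comparison of *phot1* with the wild type. From each list at most 3 called genes with the largest absolute log2FC per comparison were named. *CRK9*, *CRK14*, *CRK21*, *CRK40*, and members called only by another tool were named in addition, after their values were seen.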

Additional observations from a re-analysis of the deposited data

Results flagged for a closer look

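The UV-C effect on 2 members differed between *phot1phot2* and the wild type by the interaction test itself. *CRK30* fell more in *phot1phot2*, with log2FC -2.79 against -1.53 in the wild type, an interaction of -1.26 on the log2 scale (95% confidence interval -1.79 to -0.73, edgeR adjusted p = 0.00198), and 3 of 3 treated *phot1phot2* libraries were below all treated wild-type libraries. *CRK12* rose less in *phot1phot2*, with log2FC 1.09 against 2.78, an interaction of -1.69 (95% confidence interval -2.48 to -0.9, edgeR adjusted p = 0.00474). The *CRK30* call was kept in 20 and the *CRK12* call in 13 of 23 alternatives, which include the setting without a log2FC limit, where no call can be lost.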

How the results depend on the processing

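Of 58 calls of members over the 19 contrasts, 10 were kept in all alternatives run, and 0 reversed. All 58 were kept with the likelihood ratio test, RLE size factors, either filter, or all gene types, 54 with DESeq2, 49 when the fit held only the groups compared, and 10 with a test against the log2FC limit (glmTreat). With no limit on log2FC, no call could be lost, because that setting only drops a condition from the same fit. The scaling without organelle genes was not run, because 0 of the 20094 tested genes were of organelles.

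Counts of members called moved by more than 1.5 times as follows. With glmTreat, the UV-C counts of 8, 7, 8, and 9 in the wild type, *phot1*, *phot2*, and *phot1phot2* became 4, 3, 0, and 3, and all counts between genotypes and of the interaction became 0. With no limit on log2FC, the UV-C counts became 13, 14, 14, and 17, those of non-treated *phot2* and *phot1phot2* against the wild type went from 3 to 5 and from 3 to 7, that of treated *phot1phot2* from 4 to 10, that of treated *phot1phot2* against *phot1* from 1 to 4, and that against *phot2* from 1 to 5. With the likelihood ratio test, the non-treated counts against the wild type of 0, 3, and 3 in *phot1*, *phot2*, and *phot1phot2* became 2, 9, and 7, the *phot2* interaction went from 0 to 1, and the treated counts between mutants (*phot2* against *phot1*, *phot1phot2* against *phot1*, *phot1phot2* against *phot2*) from 2, 1, and 1 to 8, 2, and 5. With DESeq2, non-treated *phot1* and *phot2* had 2 and 7 calls, and treated *phot2* against *phot1* and *phot1phot2* against *phot2* had 4 and 0. With only the groups compared, non-treated *phot2* and *phot1phot2* had 1 and 0, the *phot1phot2* interaction 1, and the treated mutant pairs 4, 2, and 4. The shares of all genes called in these alternatives are not given here. The moves are thus not a result about the CRK genes, and their cause was not tested.

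Leaving out each library in turn, the counts ranged from 8 to 9 for UV-C in the wild type, 7 to 8 in *phot1*, 5 to 13 in *phot2*, and 7 to 10 in *phot1phot2*. Against the wild type they ranged from 0 to 0, 0 to 6, and 1 to 3 without treatment and from 0 to 0, 5 to 7, and 1 to 3 after UV-C, in *phot1*, *phot2*, and *phot1phot2*. The *phot1phot2* interaction ranged from 0 to 2, being 0 without the first treated *phot1phot2* library, and the treated mutant pairs from 0 to 2, 1 to 1, and 0 to 1.

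With the replicate number as a block, 56 of 58 calls were kept and no count moved by more than 1.5 times. The losses were *CRK45* after UV-C in *phot2* (edgeR adjusted p = 0.0105) and *CRK24* in treated *phot1phot2* against the wild type (edgeR adjusted p = 0.0112). Over the 16 comparisons, the correlation of same-numbered samples ranged from -0.191 to 0.447. With the other number in the labels as the block, 51 were kept, the *phot1phot2* interaction had 1 call, and treated *phot1phot2* against *phot2* had 2. Members at under 1 CPM were tested with few reads, so a difference that was not called there may lie below what this depth can show.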
